A study of Arabidopsis thaliana with 9 samples.

Results

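Transcript levels in whole rosettes of the Arabidopsis thaliana mutant pdx3-4 were compared with those of wild type. Both groups had 3 libraries, which are 6 of the 9 libraries in the series, and the comparison covered the 33323 nuclear loci (AT1G to AT5G) of 33602 in the count files. Of these, 18715 passed the filter on low counts and were tested and 14608 were not. The remaining 3 libraries came from a further mutant, pdx3-3, and were used for a direct test between the alleles. All plants were of the Col-0 ecotype and were 21 days old, raised on soil with 16 h of light and 8 h of dark. The labels give pdx3-4 as the line GK-260E03 and pdx3-3 as SALK_054167C, names from collections of T-DNA insertion lines, and the controls as wild type. Each mutant was therefore 1 line, no source used here gives the place of either insertion in the gene, and no complemented line was analysed here. Polyadenylated RNA was sequenced, and the deposited values were counts per locus, which summed to 20754721 to 21312901 in pdx3-4 and 18689726 to 21938941 in wild type. The labels call the libraries of a genotype biological replicates.

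PDX3 encodes the oxidase that turns pyridoxine 5′-phosphate and pyridoxamine 5′-phosphate into PLP (pyridoxal 5′-phosphate), the vitamin B6 vitamer that enzymes bind as a cofactor. Plants also make PLP directly, through a synthase built from PDX1 and PDX2 proteins, and recycle unphosphorylated vitamers with the kinase SOS4 and the reductase PLR1. PLP serves aminotransferases, decarboxylases and many other enzymes of amino acid metabolism, so that the vitamin is tied to nitrogen metabolism.

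In pdx3-4 about as many genes were higher as were lower than in wild type, but the increases were larger, and defence genes of the salicylic acid pathway and of pattern-triggered immunity, sulfur deficiency genes and sugar starvation genes lay mostly among the higher genes. Genes of the Calvin cycle, photorespiration and flavonoid synthesis, a joint list of aliphatic glucosinolate and myrosinase genes, and the expansins lay mostly among the lower ones. A gene was called when its Benjamini-Hochberg adjusted p in edgeR's quasi-likelihood test was under 0.05, and every adjusted p below comes from that test over all 18783 loci tested. By this rule 3921 nuclear genes (21%) were called higher and 3448 (18.4%) were called lower in pdx3-4, so 53.2% of the called genes were higher. That split depended on the scaling: it was 36.8% with upper-quartile factors, which moved the median log2 fold change of all nuclear genes from -0.01 to -0.13, and 61.5% with library size alone. The median log2 fold change was 0.75 among genes called higher and -0.48 among genes called lower, and the median SE was 0.115. The libraries of the groups did not overlap for 4813 higher genes (25.7%) and 4499 lower genes (24%). At least 2-fold differences were found for 1512 higher genes (8.08%) and 471 lower genes (2.52%), at least 4-fold differences for 490 and 60, and at least 8-fold differences for 195 and 14. The genes were spread over the genome, with 19.7% to 21.9% of the tested genes of a chromosome called higher and 17.8% to 19.3% called lower.

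**Figure D1:**
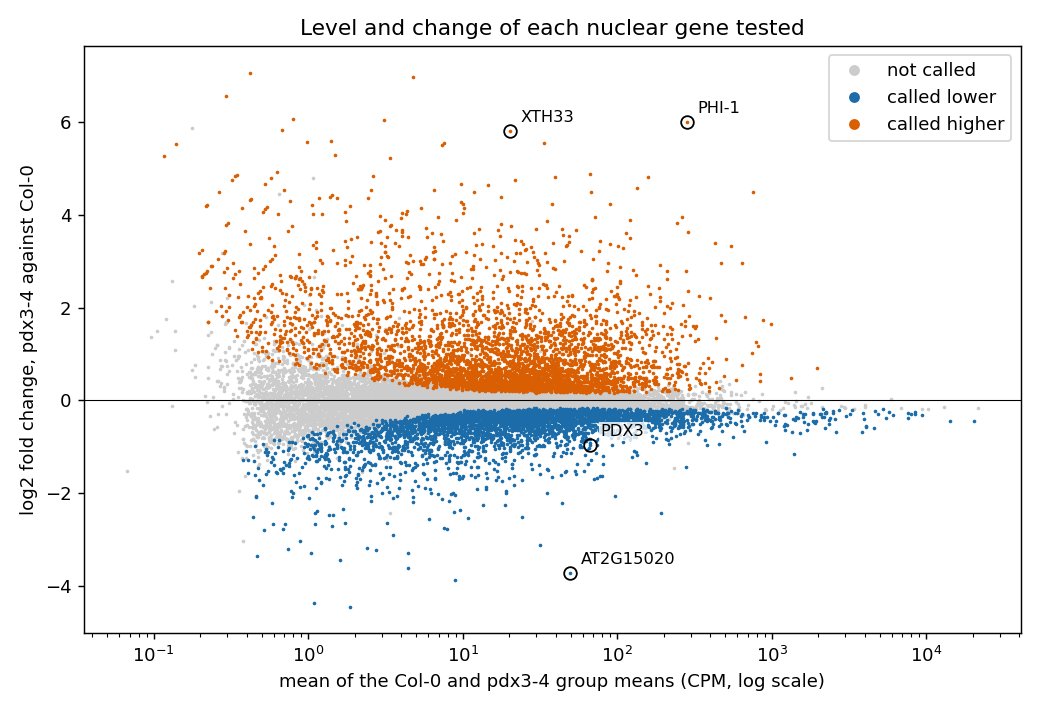
Each point is 1 of the 18715 nuclear genes tested, with the mean of the wild-type and pdx3-4 group means (CPM, log axis) across and the log2 fold change of pdx3-4 against wild type (Col-0) up; colours mark genes called higher, called lower or not called. The points reach farther above 0 than below it, and PDX3 lies among the lower genes at a log2 fold change of -0.96.

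Levels below are CPM, counts scaled to a common library size with TMM factors, given for libraries 1, 2 and 3 in that order. A number after "rose by" or "fell by", or in parentheses before an SE, is a log2 fold change. The libraries of pdx3-4 lay close together: on the leading principal component of the 500 most variable genes, which held 77.2% of the variance, they fell between 12.1 and 15, those of wild type between -50.6 and -41.1 and those of pdx3-3 between 24.9 and 35.5. In pdx3-3, libraries 1 and 2 took 0.536% and 0.174% of their counts from the chloroplast genome, whereas no library of pdx3-4 or wild type was above 0.0532%. The part of that difference in the comparison of the alleles was not tested. Root cell markers were at or near 0, except 1 of the 6: EXPA7 had 0 counts in all 9 libraries together, and PRP3, IRT1, COBL9 and CASP1 had 3, 1, 1 and 10. The exception, PYK10, a beta-glucosidase of endoplasmic reticulum bodies, was present at 44.0, 40.4 and 42.7 CPM in wild type and 59.7, 38 and 50.1 CPM in pdx3-4 and was not called (log2 fold change 0.22, SE 0.267, edgeR adjusted p = 0.558).

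The targeted gene itself was lower in pdx3-4 but still present. PDX3 (locus AT5G49970, on chromosome 5 from 20329103 to 20333172 in build TAIR10.1, where its symbol is PPOX) stood at 92.5, 93.7 and 78.4 CPM in wild type and at 42.4, 50.3 and 43.4 CPM in pdx3-4. All 3 pdx3-4 libraries were below all wild-type libraries, with a log2 fold change of -0.96, SE 0.105, edgeR adjusted p = 4.36e-05, or 1.95-fold lower. In pdx3-3 the level was 9.22, 8.10 and 10.5 CPM, so pdx3-4 held 4.88 times as much PDX3 RNA as pdx3-3 (log2 fold change 2.29, SE 0.118, edgeR adjusted p = 8.56e-06). By this measure pdx3-4 is the weaker allele. A count over the whole locus does not tell a complete transcript from one cut short at the insertion. The number of genes called was not smaller than in pdx3-3, where 3523 (18.8%) were called higher and 3284 (17.5%) lower than in the same wild-type libraries. The median log2 fold change of genes called higher was 0.75 in pdx3-4 and 0.88 in pdx3-3. For genes called lower it was -0.48 in each.

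Other genes of the vitamin B6 pathway were slightly lower or were not called. Of the 9 genes of the list, 5 were called lower and 0 higher, with a median log2 fold change of -0.24. PDX1.3, a catalytic subunit of the PLP synthase, stood at 196, 212 and 174 CPM in wild type and 142, 136 and 145 CPM in pdx3-4, without overlap, and fell by 0.46 on the log2 scale (SE 0.0767, edgeR adjusted p = 7.54e-04). AT4G26860, annotated as a putative PLP-dependent enzyme of the YBL036C type, was at 89.2, 98.2 and 90.3 CPM in wild type and at 71.5, 71.5 and 71.5 CPM in pdx3-4, a log2 fold change of -0.37, SE 0.0689, edgeR adjusted p = 0.00154. The other synthase subunit gene PDX1.1 (-0.24, SE 0.0798, edgeR adjusted p = 0.033) and PLR1 (-0.24, SE 0.0860, edgeR adjusted p = 0.0491) were just inside the threshold. Both calls were lost in several alternatives, so that 3 genes were called lower without wild-type library 2, without any of the 3 pdx3-4 libraries, with library size alone, or with only the 6 compared libraries in the fit. PDX2, the glutaminase subunit of the synthase (log2 fold change -0.038, SE 0.0828, edgeR adjusted p = 0.752), SOS4 (0.011, SE 0.0610, edgeR adjusted p = 0.910), AT1G11930, a relative of AT4G26860 (-0.017, SE 0.0623, edgeR adjusted p = 0.853), and PDX1.2, a catalytically inactive relative of the PDX1 proteins (0.12, SE 0.139, edgeR adjusted p = 0.541), did not pass the test. In the direct test between the alleles PDX1.2 was lower in pdx3-4 than in pdx3-3 (log2 fold change -0.64, SE 0.133, edgeR adjusted p = 0.0196), a call kept in 2 of 6 fits that each left out 1 library.

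**Figure D2:**
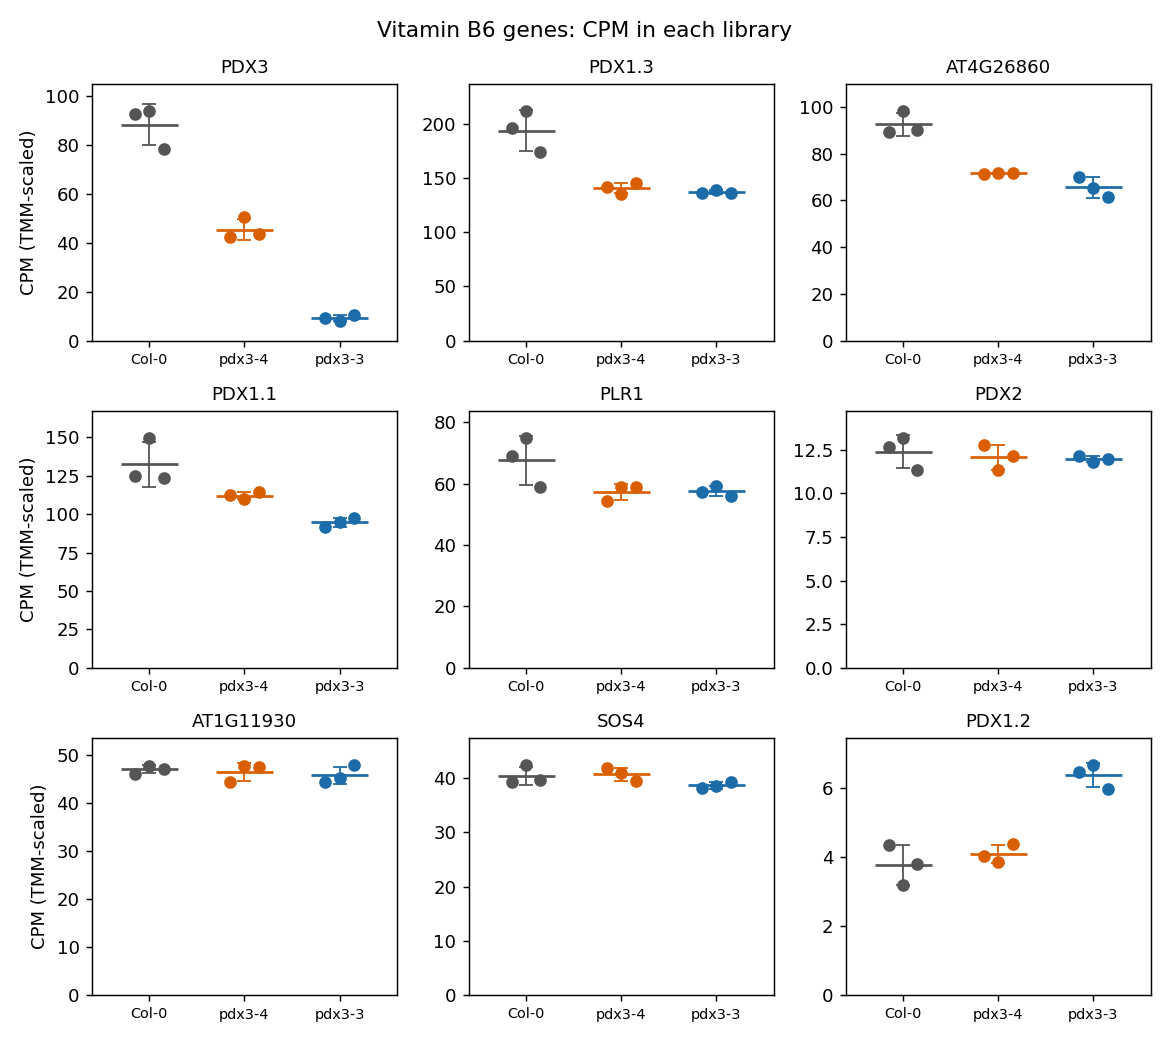
CPM (TMM-scaled, linear axis from 0) of the 9 vitamin B6 genes in each library of wild type (Col-0), pdx3-4 and pdx3-3; points are libraries, lines are means and bars are SD (n = 3). For PDX3 the pdx3-4 points lie at 42.4 to 50.3 CPM, between those of wild type and pdx3-3, and for PDX2, AT1G11930 and SOS4 the pdx3-4 and wild-type points overlap.

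The 10 genes named for the largest increases were a mixed set. AT5G39580, a gene of the peroxidase superfamily, had 1, 2 and 1 counts in wild type and stood at 6.92, 11.5 and 9.84 CPM in pdx3-4 (log2 fold change 6.98, SE 0.623, edgeR adjusted p = 1.13e-05, a value that depends on the prior count because wild type was so low). ACS7, an enzyme that makes the precursor of ethylene, had 3, 1 and 1 counts in wild type and 5.73, 5.25 and 7.34 CPM in pdx3-4 (6.06, SE 0.372, edgeR adjusted p = 1.49e-06). PHI-1, of the phosphate-responsive family to which EXORDIUM belongs, was at 10.1, 7.01 and 9.02 CPM in wild type and 512, 517 and 642 CPM in pdx3-4 (6.0, SE 0.328, edgeR adjusted p = 7.95e-07). None of these 3 genes had a pdx3-4 library within the wild-type range, which the rule for naming them required. XTH33, XTH18 and XTR6, which code for enzymes that cut and rejoin xyloglucan in the cell wall, rose by 5.82, 5.56 and 4.89 on the log2 scale, and AT3G01830, a calcium-binding EF-hand protein, by 4.84. AT1G21525, for which the reference gives no product, rose by 5.52. RRTF1, the redox responsive transcription factor 1, was uneven, at 9.39, 9.71 and 0.783 CPM in pdx3-4 against 0.423, 0.0961 and 0 CPM in wild type. Its log2 fold change of 5.23, SE 1.59, edgeR adjusted p = 0.0235 lost the call in limma-voom and without wild-type library 2 or 3 or pdx3-4 library 1 or 2, with adjusted p of 0.0619 to 0.0756 in those edgeR fits and 0.336 in limma-voom.

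The 10 genes named for the largest decreases were mixed as well. AT2G15020, an uncharacterized protein, stood at 96.1, 111 and 70.3 CPM in wild type and 8.89, 6.80 and 5.28 CPM in pdx3-4, a log2 fold change of -3.72, SE 0.203, edgeR adjusted p = 7.95e-07. XTH31, of the same wall enzyme family whose members XTH33 and XTH18 rose, stood at 62.2, 77.6 and 31.2 CPM in wild type and at 8.48, 4.88 and 6.31 CPM in pdx3-4 (-3.12, SE 0.378, edgeR adjusted p = 8.83e-05). BBX29, a B-box zinc finger protein, was at 6.40, 5.43 and 4.96 CPM and 1.19, 0.891 and 0.587 CPM (-2.64, SE 0.223, edgeR adjusted p = 8.08e-06). For each of the 3, every pdx3-4 library lay below the lowest wild-type library, which the rule for naming them required. PRE1, a basic helix-loop-helix protein of the family that promotes cell elongation, fell by 2.74 on the log2 scale, AT2G27420, a cysteine proteinase, by 3.28, and AT2G44940, an Integrase-type DNA-binding protein, by 2.77. AT3G09450, AT3G15310, AT5G66740 and AT1G11700 fell by 3.61, 3.22, 2.90 and 2.56.

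Genes that make and regulate salicylic acid, the hormone of defence against biotrophic pathogens, were higher in pdx3-4 wherever they were called. Of 14 genes tested, 9 were called higher and 0 lower, against 21% and 18.4% of all genes, and the median log2 fold change was 1.90. ICS1, the isochorismate synthase that starts the pathway, stood at 20.0, 19.2 and 14.4 CPM in wild type and 42.2, 38.7 and 47.2 CPM in pdx3-4 (log2 fold change 1.26, SE 0.122, edgeR adjusted p = 1.95e-05). PBS3, the enzyme that joins isochorismate to glutamate on the way to salicylic acid, was at 7.03, 7.45 and 5.87 CPM in wild type and 27.1, 22.6 and 27.2 CPM in pdx3-4 (1.91, SE 0.105, edgeR adjusted p = 7.95e-07). EDS5, the transporter that brings isochorismate out of the chloroplast, was at 4.18, 3.80 and 3.57 CPM and 14.1, 13.9 and 14.6 CPM (1.88, SE 0.113, edgeR adjusted p = 1.29e-06). The groups did not overlap for any of these 3 steps of synthesis. The transcription factors SARD1 and CBP60G, which switch on ICS1, rose by 3.02 and 2.07, and SAG101, PAD4 and EDS1, lipase-like proteins that work together in immune signalling, rose by 2.0, 2.18 and 1.31.

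The output side of the salicylic acid pathway was also higher, with 17 genes called higher and 1 lower of 22 tested and a median log2 fold change of 1.51. WRKY18, a transcription factor of defence, stood at 5.5, 4.76 and 6.99 CPM in wild type and 133, 134 and 120.2 CPM in pdx3-4 (4.49, SE 0.235, edgeR adjusted p = 6.87e-07). WRKY46 rose by 3.26, the glutaredoxin gene GRXS13 by 2.22 and the nudix hydrolase gene NUDT6 by 1.86. PR5, a thaumatin-like pathogenesis-related protein, stood at 17.9, 24.7 and 12.2 CPM in wild type and 49.8, 45.6 and 55.1 CPM in pdx3-4, without overlap (1.45, SE 0.264, edgeR adjusted p = 0.00138). The best known marker, PR1, was erratic: it was at 35.7, 4.04 and 0.0533 CPM in wild type and 69.0, 15 and 46.2 CPM in pdx3-4. The lowest pdx3-4 library of PR1 lay below the highest wild-type library, and the log2 fold change of 1.72, SE 1.02, edgeR adjusted p = 0.213 did not pass the test.

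Genes that respond to microbial patterns at the cell surface were higher too. Of 20 tested, 16 were called higher and 0 lower, with a median log2 fold change of 1.24, and 2 more were too low to test. Beside PHI-1, the kinase gene MPK11 stood at 2.01, 2.31 and 0.907 CPM in wild type and 12.6, 16.0 and 17.5 CPM in pdx3-4 (3.13, SE 0.249, edgeR adjusted p = 5.83e-06). BAK1, the co-receptor of many pattern receptors, changed less but evenly, from 33.9, 32.5 and 30.6 CPM in wild type to 60.7, 59.6 and 58.0 CPM in pdx3-4 (0.88, SE 0.0807, edgeR adjusted p = 1.35e-05). The ubiquitin ligase gene PUB23, which dampens the response, stood at 6.77, 4.80 and 2.4 CPM and 49.2, 39.2 and 37.9 CPM (3.17, SE 0.306, edgeR adjusted p = 1.86e-05), and WRKY33, which drives camalexin synthesis, rose by 1.79. No pdx3-4 library of these genes lay within the wild-type range.

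WRKY factors bind the W-box, searched here as TTGACC or TTGACT on both strands in the 250 bases before the start of each gene. A W-box stood in 15 of 20 promoters of the pattern-triggered list (75.0%), in 3 of 14 (21.4%) of salicylic acid synthesis and in 5 of 22 (22.7%) of salicylic acid output, against 28.1% of the 18699 promoters of nuclear genes tested. Among genes called higher the share was 36.0%, among those higher by at least 4-fold 47.8% (234 of 490), and among those called lower 23.4%. A match is a description of the letters and not a measured binding site. The promoters of the 3 list members with the smallest adjusted p that hold a W-box are shown, to set the motif beside the increases given above, from the RefSeq build TAIR10.1, each written 5′ to 3′ on the strand of its gene with the W-box in capitals. PHI-1 lies on the plus strand (chr1:12851733-12851982), MPK11 on the plus strand (chr1:201853-202102) and BAK1 on the minus strand (chr4:16090833-16091082), where 2 copies adjoin.
PHI-1: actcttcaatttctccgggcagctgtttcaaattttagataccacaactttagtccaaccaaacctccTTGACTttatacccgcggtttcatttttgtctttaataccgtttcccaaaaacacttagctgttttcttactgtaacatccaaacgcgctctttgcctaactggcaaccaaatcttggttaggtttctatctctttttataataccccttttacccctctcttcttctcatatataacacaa
MPK11: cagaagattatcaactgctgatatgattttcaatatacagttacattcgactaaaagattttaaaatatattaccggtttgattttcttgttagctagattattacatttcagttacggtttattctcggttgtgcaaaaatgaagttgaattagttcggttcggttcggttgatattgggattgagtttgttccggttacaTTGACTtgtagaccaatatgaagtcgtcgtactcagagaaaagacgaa
BAK1: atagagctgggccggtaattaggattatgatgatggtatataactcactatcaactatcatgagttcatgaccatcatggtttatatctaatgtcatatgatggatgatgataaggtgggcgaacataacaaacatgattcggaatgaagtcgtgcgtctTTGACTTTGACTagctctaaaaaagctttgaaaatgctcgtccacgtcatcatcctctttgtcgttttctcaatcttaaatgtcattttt

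Intracellular immune receptors of the NLR class rose almost throughout: 18 of 19 tested were called higher and 0 lower, with a median log2 fold change of 0.83. The helper receptor genes ADR1, ADR1-L1 and ADR1-L2 rose by 1.63, 1.4 and 1.53. ADR1-L2 stood at 41.6, 48.6 and 38.8 CPM in wild type and 128, 124 and 121 CPM in pdx3-4 (1.53, SE 0.102, edgeR adjusted p = 2.21e-06). RPM1, a receptor for bacterial effectors, rose by 1.2. Many NLR genes have close copies, and no source used here says how reads shared between copies were counted.

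Among genes of camalexin and indolic defence compounds the list split, with 4 of 11 called higher, 1 lower and a median log2 fold change of 0.14. Of all genes, 21% were called higher and 18.4% lower. The one that fell and one that rose were related regulators of indolic glucosinolates: MYB34 stood at 14.5, 15.3 and 14.9 CPM in wild type and 2.7, 3.66 and 2.06 CPM in pdx3-4 (-2.4, SE 0.180, edgeR adjusted p = 4.19e-06), whereas MYB51 stood at 9.67, 13.4 and 9.28 CPM and 51.9, 51.6 and 50.3 CPM (2.25, SE 0.173, edgeR adjusted p = 4.91e-06). The groups did not overlap for either gene. CYP81F2, which modifies indolic glucosinolates on infection, and the transporter gene PEN3 rose by 3.1 and 1.64.

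Jasmonate genes were higher as well, with 16 called higher and 1 lower of 23 tested and a median log2 fold change of 0.95. LOX4, a lipoxygenase of jasmonate synthesis, was at 8.09, 7.30 and 5.01 CPM in wild type and 75.4, 65.1 and 44.2 CPM in pdx3-4 (3.18, SE 0.309, edgeR adjusted p = 1.99e-05). The repressor genes JAZ1 and JAZ6 rose by 2.25 and 0.99. JAZ7, another repressor gene, had 3, 9 and 6 counts in wild type and was uneven in pdx3-4, at 20.8, 17.7 and 5.82 CPM (5.56, SE 0.613, edgeR adjusted p = 4.55e-05). Of 17 genes of ethylene synthesis and response, 8 were called higher and 1 lower, with a median of 0.38. The ethylene response factors ERF6, ERF104 and ERF105 rose by 2.34, 1.32 and 1.36, and EBF2, an F-box protein that removes the factor EIN3, by 0.38.

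Chaperones of the endoplasmic reticulum, which fold secreted proteins, were slightly higher, with 11 of 14 called higher, 0 lower and a median log2 fold change of 0.31. BZIP60, the transcription factor of the unfolded protein response, rose by 1.56, the stress-inducible chaperone gene BIP3 by 2.69 and the calreticulin gene CRT3 by 0.80. The count fell to 6 with upper-quartile factors and to 7 without pdx3-4 library 1. Cytosolic heat shock genes gave 1 higher and 1 lower of 10, against 21% and 18.4% of all genes. HSFB2A, at 0.48, SE 0.156, edgeR adjusted p = 0.031, and HSP101, at -0.43, SE 0.143, edgeR adjusted p = 0.0336, both lost their calls in 6 or 7 of the alternatives. Of 17 genes of oxidative and mitochondrial stress, 9 were called higher and 1 lower, with a median of 0.36. OM66, an outer mitochondrial membrane ATPase, stood at 5.66, 8.17 and 6.19 CPM in wild type and 70.9, 67.2 and 72.9 CPM in pdx3-4, without overlap (3.39, SE 0.171, edgeR adjusted p = 6.63e-07), and the zinc finger factor gene ZAT10 and the glutathione transferase gene GSTF8 rose by 1.83 and 0.82.

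**Figure D3:**
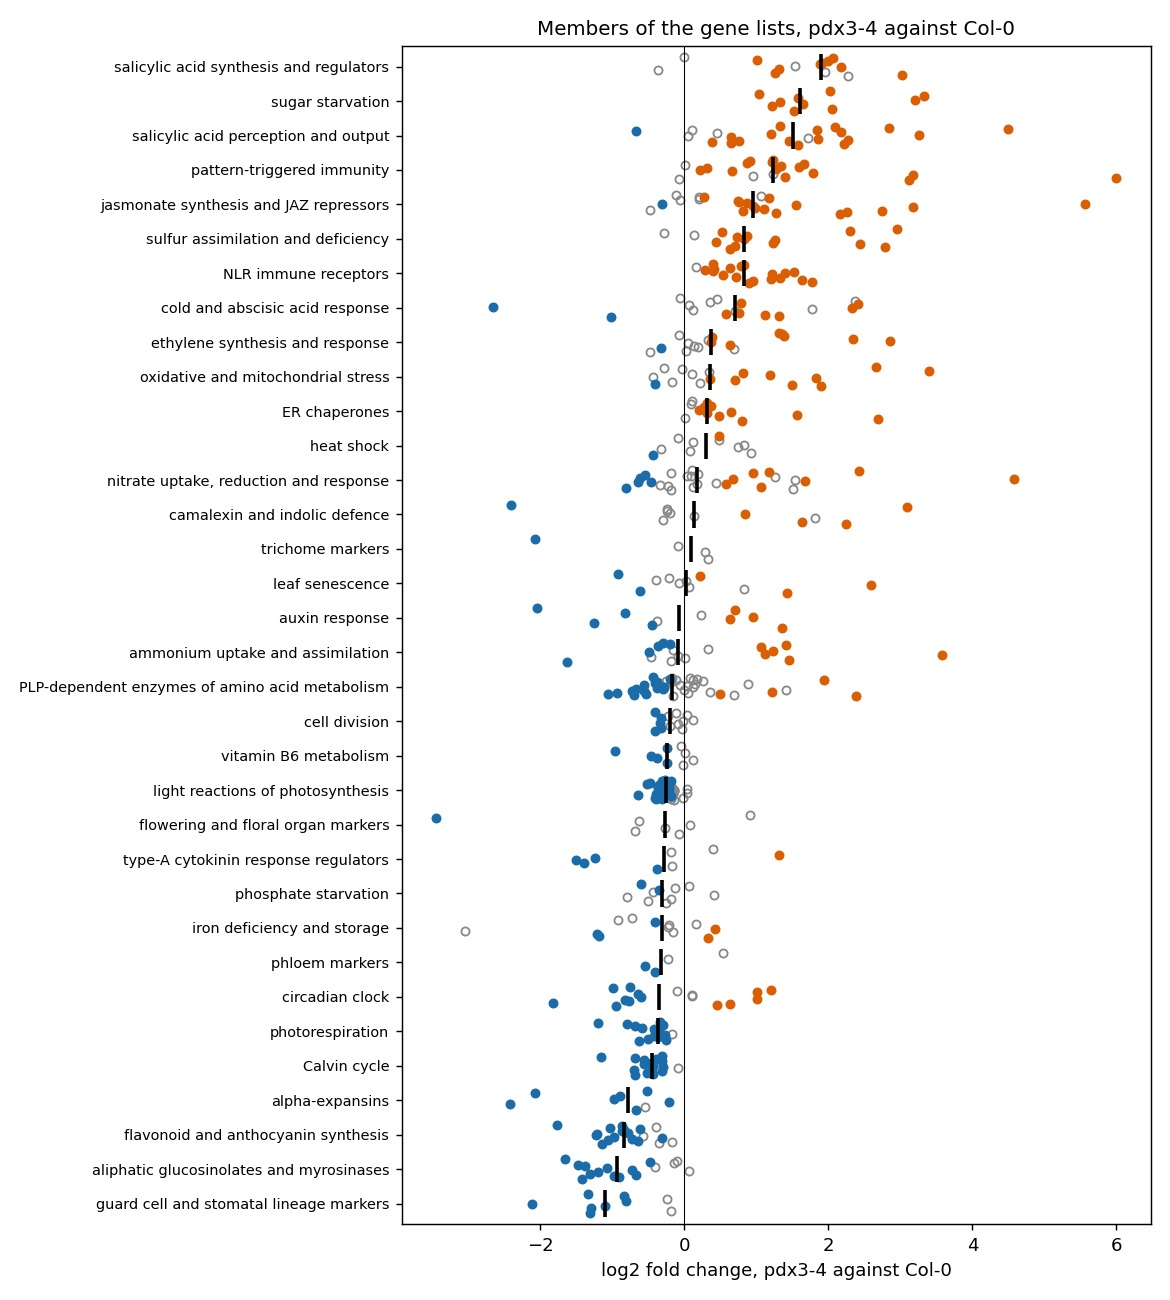
Log2 fold change of pdx3-4 against wild type (Col-0) for each tested member of the gene lists, 1 row per list; filled points were called higher (right) or lower (left), open points were not called, and black ticks are list medians. The salicylic acid, sugar starvation and pattern-triggered immunity rows lie to the right with medians of 1.24 to 1.90, and the flavonoid, glucosinolate and guard cell rows to the left with medians of -0.83 to -1.09.

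The direct test of pdx3-4 against pdx3-3 called 533 genes higher (2.85%) and 598 lower (3.2%) in pdx3-4, and it shares the pdx3-4 libraries with the comparison above. These counts rested on few libraries: without pdx3-4 library 3 they were 145 and 246, without pdx3-3 library 2 they were 224 and 294, and without the other libraries in turn they were 297 to 352 and 293 to 650. Genes named for this test were therefore those whose call was kept in all 6 fits that left out 1 library, unless stated otherwise. Outside the naming rule, they were chosen after their values were seen.

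In that test defence genes of the salicylic acid pathway were lower in pdx3-4 than in pdx3-3. Of the 14 synthesis genes 8 were called lower and 0 higher, and of the 22 output genes 8 were called lower and 0 higher. Without pdx3-4 library 2 both counts of lower genes were 5, and that of the output genes was also 5 without pdx3-4 library 3 or pdx3-3 library 2. ICS1, at 42.2, 38.7 and 47.2 CPM in pdx3-4, stood at 81.6, 74.1 and 83.2 CPM in pdx3-3 (log2 fold change -0.90, SE 0.116, edgeR adjusted p = 0.00189). PBS3 stood at 49.6, 50.2 and 51.3 CPM in pdx3-3, above all its pdx3-4 libraries (-0.98, SE 0.0919, edgeR adjusted p = 3.08e-04). PR5 was at 215, 261 and 135 CPM in pdx3-3 (-2.02, SE 0.254, edgeR adjusted p = 0.00168). In all 3 genes pdx3-4 lay between wild type and pdx3-3 without touching either. SARD1 (-1.32), CBP60G (-1.43) and EDS1 (-0.60) were lower in pdx3-4 by these log2 fold changes, as were WRKY53 (-1.87), WRKY40 (-1.66), WRKY46 (-1.31) and NUDT6 (-1.02) on the output side.

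The pattern-triggered list gave 7 lower and 1 higher in pdx3-4 than in pdx3-3, with 2 to 4 lower without pdx3-4 library 3, pdx3-4 library 2 or pdx3-3 library 2. PUB23 (-1.74) and WRKY33 (-1.63) kept their calls, and the gene called higher, WRKY29 (1.56), lost its call in every fit that left out a library. PHI-1 was not called between the alleles (0.35, SE 0.255, edgeR adjusted p = 0.515). Its pdx3-3 libraries stood at 240.1, 572 and 499.5 CPM, and the spread between them covered 2 of the 3 pdx3-4 libraries. Of the 11 indolic genes 4 were called lower, 2 without pdx3-4 library 2 or 3, with MYB51 (-1.49) and CYP83B1 (-0.68), an enzyme of indolic glucosinolate synthesis, kept throughout. NLR receptors gave 2 lower and 0 higher of 19, and 0 to 7 lower over the alternatives.

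Ethylene response factors stood far apart in the alleles. Of the 17 ethylene genes 5 were called lower and 0 higher in pdx3-4 than in pdx3-3. ERF5 was at 11.1, 7.27 and 5.73 CPM in pdx3-4 and 54.3, 49.2 and 60.5 CPM in pdx3-3 (log2 fold change -2.76, SE 0.216, edgeR adjusted p = 1.42e-04). Its pdx3-4 libraries overlapped the wild-type libraries at 7.40, 10.8 and 6.99 CPM, and it was not called against wild type (-0.064, SE 0.233, edgeR adjusted p = 0.853). ACS6, a synthase of the ethylene precursor, gave a similar picture, with 56.8, 75.1 and 57.0 CPM in wild type, 101, 72.0 and 64.7 CPM in pdx3-4 and 224, 299 and 297 CPM in pdx3-3. It was lower in pdx3-4 than in pdx3-3 (-1.78, SE 0.181, edgeR adjusted p = 5.02e-04) and was not called against wild type (0.33, SE 0.179, edgeR adjusted p = 0.170). ERF105, ERF104 and ERF6 were lower than in pdx3-3, with log2 fold changes of -2.53, -1.82 and -1.67. OM66 (-1.93), ZAT10 (-1.64) and GSTF6 (-0.77), a gene with a near-identical copy, were among the 6 of 17 oxidative stress genes called lower, 3 without pdx3-4 library 3. ER chaperones gave 9 lower of 14, but 1 without pdx3-3 library 2 or pdx3-4 library 2 or 3 and 5 without pdx3-3 library 1, and HSP90.7, the chaperone of the HSP90 family in that compartment, kept its call (-0.53, SE 0.0854, edgeR adjusted p = 0.00582). LOX4 was lower in pdx3-4 as well (-1.64), while 21 of the 23 jasmonate genes were not called between the alleles.

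**Figure D4:**
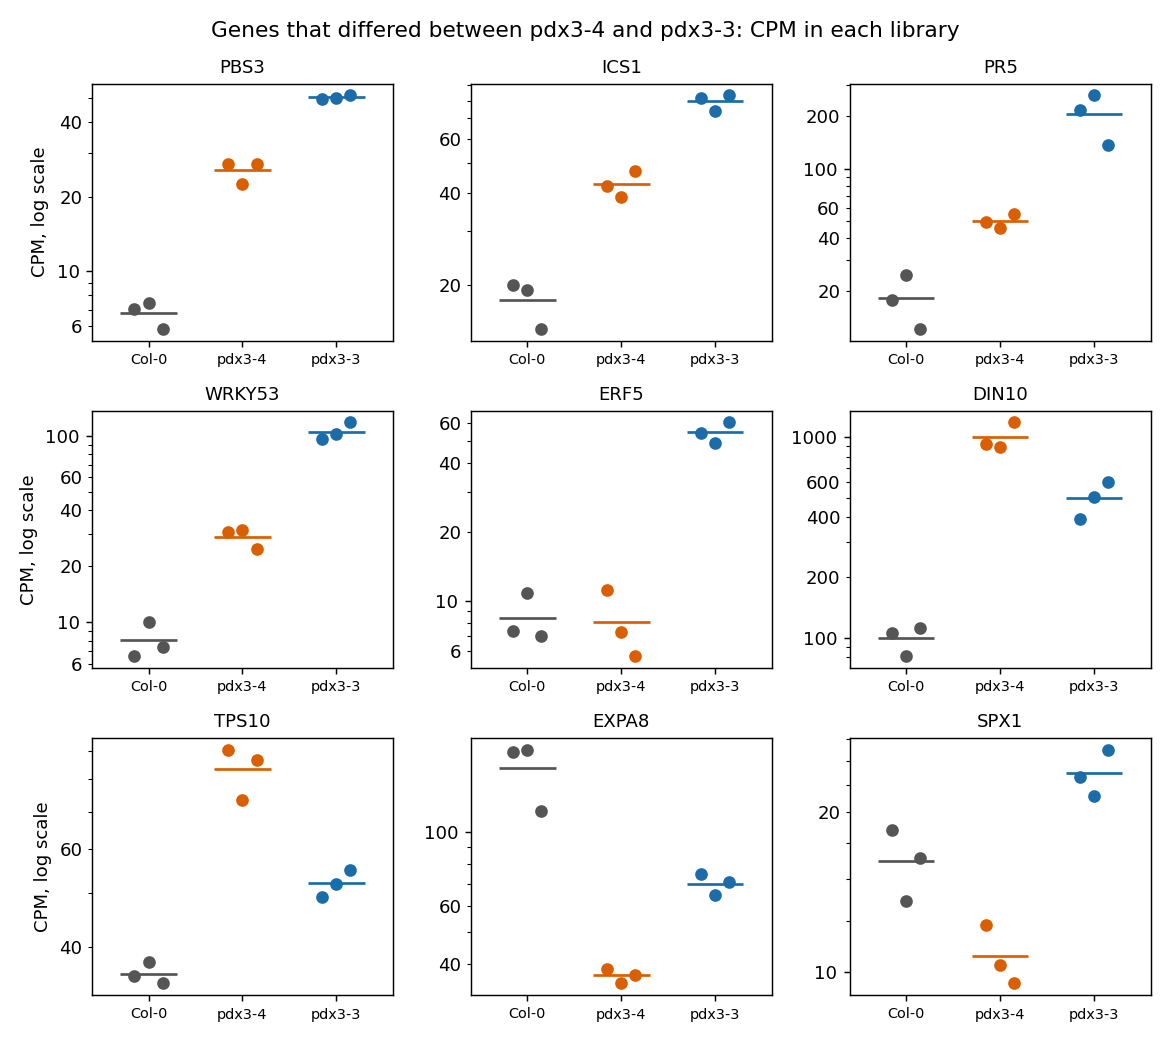
CPM (log axis) of 9 genes in each library of wild type (Col-0), pdx3-4 and pdx3-3, chosen after their values were seen; points are libraries and lines are means. For PBS3, ICS1, PR5 and WRKY53 the pdx3-4 points lie between the other groups, for ERF5 they overlap wild type, for DIN10 and TPS10 they are the highest, and for EXPA8 and SPX1 the lowest.

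Genes that carbon shortage switches on were higher in pdx3-4 in all 10 cases tested, with a median log2 fold change of 1.61, and the count was 10 in every alternative. DIN10, annotated as a raffinose synthase family gene and known from leaves kept in the dark, stood at 105, 80.9 and 112 CPM in wild type and 920.0, 891 and 1184 CPM in pdx3-4 (3.33, SE 0.186, edgeR adjusted p = 8.78e-07). TPS8, TPS9, TPS10 and TPS11, of the trehalose phosphate synthase family linked to sugar signalling, rose by 1.64, 1.53, 1.22 and 1.33. The growth arrest genes DRM1 and DRM2 rose by 2.05 and 3.21, the dark-inducible gene DIN1 by 1.59, EXL2, a relative of EXORDIUM, by 2.02, and AKINBETA1, a subunit of the energy-sensing SnRK1 kinase, by 1.03. Here pdx3-4 exceeded pdx3-3: 6 of the 10 were called higher and 0 lower in the direct test, 3 without pdx3-4 library 3. DIN10 was at 389, 505 and 595 CPM in pdx3-3, below every pdx3-4 library (1.01, SE 0.171, edgeR adjusted p = 0.00754). TPS9 and TPS10 were higher in pdx3-4 by 1.03 and 0.68, and these 3 calls were kept in all 6 fits that left out a library.

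**Figure D5:**
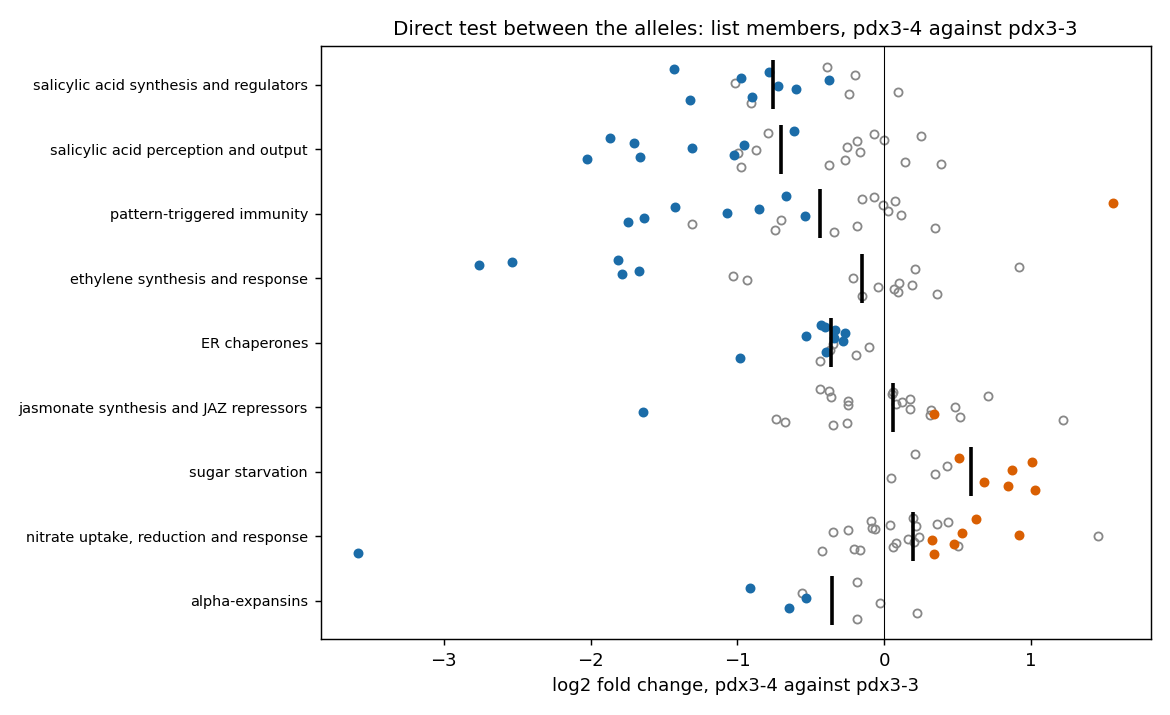
Log2 fold change of pdx3-4 against pdx3-3 for the tested members of 9 gene lists; filled points were called higher or lower, open points were not called, and black ticks are list medians. Salicylic acid genes lie below 0 for the most part and sugar starvation genes lie above 0, with 0 and 6 called higher.

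Expansins, which loosen cell walls during growth, were lower. Of 8 alpha-expansin genes tested, 7 were called lower and 0 higher, with a median log2 fold change of -0.78. EXPA1 stood at 367, 329.9 and 277 CPM in wild type and 64.2, 62.2 and 55.9 CPM in pdx3-4 (-2.42, SE 0.138, edgeR adjusted p = 9.90e-07). EXPA8 was at 175, 177 and 115 CPM and 38.9, 35.1 and 37.3 CPM (-2.07, SE 0.147, edgeR adjusted p = 3.24e-06). Neither gene had overlapping groups, and EXPA3 and EXPA4 fell by 0.97 and 0.89. EXPA8 and EXPA3 were also lower in pdx3-4 than in pdx3-3, with log2 fold changes of -0.92 and -0.53. Of 13 cell division genes 5 were called lower and 0 higher, against 18.4% and 21% of all genes. The count of lower genes was 2 without pdx3-4 library 1. It was 3 without pdx3-4 library 3, without wild-type library 3 or with library size alone. The replication genes MCM3 and MCM7 fell by 0.41 and 0.32.

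Of 27 genes of nitrate uptake, reduction and response, 8 were called higher and 5 lower, against 21% and 18.4% of all genes, and 8 were lower with upper-quartile factors. BT1 and BT2, BTB and TAZ domain proteins that act as nitrate-responsive regulators, rose by 2.43 and 4.58. BT2 stood at 7.93, 8.07 and 16.4 CPM in wild type and 259, 247 and 266 CPM in pdx3-4 (4.58, SE 0.252, edgeR adjusted p = 8.28e-07). The myb-like factor genes AT1G25550 and AT1G68670 rose by 1.07 and 0.59. The nitrate reductase gene NIA1 fell by 0.63 and the nitrite reductase gene NIR1 by 0.45. NIA2, the other nitrate reductase gene, stood at 1290.5, 1424 and 1284 CPM in wild type and 1554, 1444 and 1545 CPM in pdx3-4, with groups that did not overlap, and was not called (0.18, SE 0.0925, edgeR adjusted p = 0.144). Between the alleles 6 of the 27 were called higher and 1 lower in pdx3-4, but only 1 to 3 were higher without pdx3-3 library 1 or 2 or pdx3-4 library 1 or 3. BT1 kept its call (0.63), as did the gene called lower, the nitrate transporter NRT2.5, which had 1 to 4 counts in each wild-type and pdx3-4 library and 1.76, 1.27 and 2.80 CPM in pdx3-3 (-3.58, SE 0.402, edgeR adjusted p = 0.00101).

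Of 17 genes of ammonium uptake and assimilation, 6 were called higher and 5 lower, against 21% and 18.4% of all genes. The asparagine synthetase gene ASN1 stood at 5.13, 6.53 and 9.18 CPM in wild type and 59.8, 77.4 and 112 CPM in pdx3-4 (3.58, SE 0.251, edgeR adjusted p = 2.92e-06), and the glutamate dehydrogenase genes GDH1 and GDH2 rose by 1.06 and 1.23. The ammonium transporter gene AMT2 rose by 1.45, and AMT1-2 fell by 1.62. The groups did not overlap for ASN1.

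Of the PLP-dependent enzymes of amino acid metabolism, more were lower than higher, with 15 of 41 called lower, 4 higher and a median log2 fold change of -0.17, against 18.4% lower and 21% higher among all genes. CGS1, the first step toward methionine, stood at 330.4, 326 and 352 CPM in wild type and 221, 211 and 205 CPM in pdx3-4 (-0.66, SE 0.0642, edgeR adjusted p = 1.91e-05). MGL, which breaks methionine down, fell by 1.06 and the arginine decarboxylase gene ADC1 by 0.73. Among those that rose, the alanine aminotransferase gene ALAAT2 stood at 4.02, 4.18 and 4.64 CPM and 10.1, 8.96 and 10.8 CPM (1.21, SE 0.120, edgeR adjusted p = 2.15e-05), and the glutamate decarboxylase gene GAD1 rose by 1.95. The groups of CGS1 and ALAAT2 did not overlap. GAD1 was lower in pdx3-4 than in pdx3-3 (-1.27). Of the 41, 22 were not called. The list does not hold ACS7 or SHM7, which also use PLP and rose.

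Sulfur genes were higher, with 13 of 15 called higher and 0 lower and a median log2 fold change of 0.83. SDI1, a marker of sulfur deficiency that represses glucosinolate synthesis, stood at 6.19, 4.42 and 10.7 CPM in wild type and 59.7, 59.3 and 45.2 CPM in pdx3-4 (2.96, SE 0.240, edgeR adjusted p = 6.42e-06). SHM7, a serine hydroxymethyltransferase that also needs PLP, was at 52.4, 49.3 and 58.5 CPM and 422, 358 and 327 CPM (2.79, SE 0.108, edgeR adjusted p = 2.50e-07). Both were above the wild-type range in every pdx3-4 library. The glutathione-degrading enzyme gene GGCT2;1 rose by 2.3 and the vacuolar sulfate exporter gene SULTR4;2 by 1.24. In the direct test 1 of the 15 was higher and 2 were lower in pdx3-4, against 2.85% and 3.2% of all genes. SULTR1;2, the gene called higher, kept its call in 1 of 6 fits that left out 1 library. AT1G04770 and APR3, called lower, each kept theirs in 3 of 6.

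Genes of aliphatic glucosinolates, which are sulfur-containing defence compounds, and of the myrosinases that break them down were taken as 1 list, with 12 of 16 called lower, 0 higher and a median log2 fold change of -0.93. The regulators MYB28 and MYB29 fell by 1.66 and 1.37, and the sulfotransferase gene SOT18 by 1.19. MYB28 stood at 46.5, 51.7 and 74.2 CPM in wild type and 16.6, 19.3 and 18.7 CPM in pdx3-4 (-1.66, SE 0.153, edgeR adjusted p = 1.40e-05). AT2G31790, annotated as a glycosyltransferase, fell by 1.07. The summed level of the list overlapped, at 6281 to 8654 CPM in wild type and 5483 to 6717 CPM in pdx3-4. In the direct test 2 of the 16 were called higher and 2 lower in pdx3-4, against 2.85% and 3.2% of all genes. The myrosinase genes TGG1 and TGG2 were higher than in pdx3-3 by 0.45 and 0.76, calls kept in 1 and 3 of 6 fits that left out 1 library. Flavonoid and anthocyanin genes were lower too, with 15 of 19 called lower, 0 higher and a median of -0.83. The pathway's early enzyme genes PAL1, CHS and CHI fell by 0.64, 0.83 and 0.97. UGT78D1, which adds a sugar to flavonols, stood at 81.0, 70.1 and 57.9 CPM in wild type and 32.7, 29.6 and 32.3 CPM in pdx3-4 (-1.14, SE 0.120, edgeR adjusted p = 3.38e-05). No pdx3-4 library of MYB28 or UGT78D1 reached the wild-type range.

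Photosynthesis genes in the nucleus were modestly lower and none was called higher. In a bulk sample such as a whole rosette, fewer cells of a type and less RNA per cell cannot be told apart. Of 47 genes of the light reactions 31 were called lower, with a median log2 fold change of -0.26. PSBS, the photosystem II subunit of photoprotection, fell by 0.65 and PSBQ1, of the oxygen-evolving complex, by 0.47. For the Calvin cycle 18 of 19 genes were called lower, with a median of -0.44. RBCS1B, a small subunit of Rubisco, stood at 1905, 1911 and 1936 CPM in wild type and 872, 960.0 and 766 CPM in pdx3-4 (-1.15, SE 0.127, edgeR adjusted p = 4.67e-05), RBCS2B fell by 0.69 and the aldolase gene FBA1 by 0.70. The RBCS genes are near-identical, so the split of reads among them is uncertain. Photorespiration gave 16 of 17 lower and a median of -0.37, but 10 lower without wild-type library 2 and 9 without pdx3-4 library 2. The catalase gene CAT2 fell by 0.69, the dicarboxylate transporter gene DiT1 by 0.79 and AT1G11860, the T-protein of glycine cleavage, by 0.63. Between the alleles, RBCS2B was called in these 3 lists (0.38, SE 0.0928, edgeR adjusted p = 0.0362), and that call was kept in 1 of 6 fits.

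Clock genes moved in both directions. Of 16 tested, 5 were called higher and 8 lower, against 21% and 18.4% of all genes. The morning genes LHY, CCA1 and PRR9 were lower: LHY stood at 63.6, 66.5 and 56.8 CPM in wild type and 33.0, 32.0 and 31.9 CPM in pdx3-4 (-0.95, SE 0.0702, edgeR adjusted p = 3.92e-06), and CCA1 and PRR9 fell by 0.77 and 1.82. RVE8, an activator of evening genes, fell by 0.82. The evening genes TOC1 and LUX rose: TOC1 was at 8.67, 9.47 and 11 CPM and 22.3, 22.7 and 22.5 CPM (1.21, SE 0.118, edgeR adjusted p = 2.01e-05), and LUX rose by 1.01. The groups did not overlap for LHY or TOC1. No source used here gives the hour at which rosettes were frozen, so a difference in sampling hour and a difference in genotype cannot be told apart for these genes. The same holds for genes of other lists whose level changes over the day. LHY and CCA1 bind the evening element, searched as AAAATATCT on both strands, which stood in 3 of 16 clock promoters (18.8%) and in 2.51% of all promoters tested. The 250 bases before the starts of TOC1 (chr5:24674713-24674962, plus strand) and LUX (chr3:17182792-17183041, plus strand) are shown as the 2 clock genes with the element that had the smallest adjusted p, from the RefSeq build TAIR10.1 and 5′ to 3′, with the element in capitals. In TOC1 it is read on the opposite strand.
TOC1: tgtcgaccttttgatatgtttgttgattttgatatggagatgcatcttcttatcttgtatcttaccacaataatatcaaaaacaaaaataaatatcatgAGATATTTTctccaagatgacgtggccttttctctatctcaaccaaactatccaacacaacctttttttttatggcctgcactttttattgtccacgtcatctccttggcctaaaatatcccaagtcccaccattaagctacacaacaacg
LUX: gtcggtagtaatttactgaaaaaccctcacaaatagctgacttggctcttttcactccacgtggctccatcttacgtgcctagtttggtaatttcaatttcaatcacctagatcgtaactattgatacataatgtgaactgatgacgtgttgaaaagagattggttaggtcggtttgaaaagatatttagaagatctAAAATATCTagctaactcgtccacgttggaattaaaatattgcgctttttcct

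Hormone genes of growth gave mixed results. Of 10 auxin response genes 4 were called higher and 4 lower, against 21% and 18.4% of all genes. The count of lower genes was 2 without wild-type library 1 or pdx3-4 library 3. IAA3 and IAA2 rose by 1.36 and 0.95, and IAA1 and IAA29 fell by 0.83 and 2.04; all are repressors of auxin response. Of 8 type-A response regulators, early targets of cytokinin, 1 was called higher and 4 lower, against the same shares. ARR5 rose by 1.32, whereas ARR16, ARR15 and ARR8 fell by 1.5, 1.39 and 1.24. ARR6 was higher in pdx3-4 than in pdx3-3, at 6.28, 9.29 and 17.42 CPM against 3.07, 3.90 and 3.08 CPM (1.7, SE 0.321, edgeR adjusted p = 0.0123).

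Stomatal lineage and guard cell genes were lower, with 7 of 9 called lower, 0 higher and a median log2 fold change of -1.09. The summed level of the list was 110 to 126 CPM in wild type, 76.6 to 78.3 CPM in pdx3-4 and 61.9 to 71.4 CPM in pdx3-3. SPCH, the factor that starts the lineage, stood at 6.08, 5.96 and 4.96 CPM in wild type and 2.15, 2.49 and 2.1 CPM in pdx3-4 (-1.33, SE 0.162, edgeR adjusted p = 9.00e-05). TMM, a receptor of stomatal patterning, fell by 1.09, the guard cell factor gene MYB60 by 1.31 and the potassium channel gene KAT1 by 0.83. The pdx3-4 and wild-type groups of SPCH did not overlap. Among markers of other cell types, 1 of 4 trichome genes was lower, against 18.4% of all genes (TRY, -2.07, SE 0.244, edgeR adjusted p = 7.35e-05). The other 3 were not called, and the list had a median log2 fold change of 0.10 and a maximum of 0.33. Its sum was 13.6 to 32.4 CPM in wild type and 20.3 to 27.1 CPM in pdx3-4. Of 4 phloem genes 2 were lower, against 18.4% of all genes: APL (-0.54, SE 0.155, edgeR adjusted p = 0.0183) and SUC2 (-0.40, SE 0.129, edgeR adjusted p = 0.0302), and 0 without pdx3-4 library 1. The other 2 were not called, and the largest log2 fold change in the list was 0.54. In 1 of the 4 genes every pdx3-4 library was above every wild-type library, against 25.7% of all genes. In 1 every pdx3-4 library was below, against 24% of all genes. The sum of the 4 genes was 225 to 312 CPM in wild type and 187 to 227 CPM in pdx3-4.

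Floral markers gave 1 lower of 7 tested, against 18.4% of all genes. AG, which specifies stamens and carpels, stood at 2.75, 3.84 and 2.29 CPM in wild type and 0.275, 0.188 and 0.343 CPM in pdx3-4 (-3.44, SE 0.307, edgeR adjusted p = 1.13e-05). FT, the mobile signal of flowering, was not called (-0.68, SE 0.491, edgeR adjusted p = 0.304), nor was its target SOC1 (0.086, SE 0.108, edgeR adjusted p = 0.566), and LFY and PI were too low to test. The summed level was 46.9 to 55.9 CPM in wild type and 46.6 to 52.5 CPM in pdx3-4. Leaf senescence genes gave 3 higher and 2 lower of 11, near the 21% and 18.4% of all genes. SAG21 was up by 2.6, WRKY6 was up by 1.43 and the NAC factor gene ORE1 was down, at -0.92, SE 0.219, edgeR adjusted p = 0.00677.

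Cold and abscisic acid genes were mixed, with 7 of 17 called higher, 2 lower and a median log2 fold change of 0.70. The shares of all genes were 21% and 18.4%. The dehydrin genes COR47 and ERD10 rose by 1.32 and 1.13. CBF3, a factor that switches such genes on in the cold, stood at 1.0, 1.59 and 1.07 CPM in wild type and 0.0916, 0.281 and 0.196 CPM in pdx3-4 (-2.66, SE 0.385, edgeR adjusted p = 3.11e-04). Of 12 iron genes 2 were called higher and 3 lower, against 21% and 18.4% of all genes. The nicotianamine synthase gene NAS4 fell by 1.18, and BTS, a ligase that restrains the iron deficiency response, rose by 0.42.

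Phosphate starvation genes gave 0 higher and 2 lower of 10, against 21% and 18.4% of all genes, and SPX1 moved in opposite directions in the alleles. SPX1, a phosphate-dependent inhibitor of the starvation regulator, stood at 18.5, 13.6 and 16.4 CPM in wild type, 12.3, 10.3 and 9.54 CPM in pdx3-4 and 23.3, 21.5 and 26.3 CPM in pdx3-3. Every pdx3-4 library was below every wild-type library (-0.59, SE 0.133, edgeR adjusted p = 0.00494), and every pdx3-3 library was above them all (0.55, SE 0.127, edgeR adjusted p = 0.00622 for pdx3-3 against the same wild-type libraries). The direct test gave a log2 fold change of -1.14, SE 0.131, edgeR adjusted p = 0.00103 between the alleles, kept in all 6 fits that left out a library.

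Among genes called in the same direction against both wild type and pdx3-3, the 6 highest and the 6 lowest by the smaller of both folds were named, and more genes met that condition. The highest were led by SOB5, a gene found as a suppressor of phytochrome B mutants, which stood at 0.476, 0.529 and 0.854 CPM in wild type, 1.19, 1.46 and 1.26 CPM in pdx3-3 and 5.63, 4.64 and 5.77 CPM in pdx3-4. Its log2 fold change was 3.1, SE 0.222, edgeR adjusted p = 3.30e-06 against wild type and 2.02, SE 0.198, edgeR adjusted p = 4.31e-04 against pdx3-3. XTH33 was at 0.740, 0.769 and 0.587, 12.3, 17.8 and 14.8 and 34.8, 34.9 and 50.0 CPM in the same order (1.41, SE 0.160, edgeR adjusted p = 0.00102 against pdx3-3). That pdx3-4 was on top in both genes was the condition for naming them. Their wild-type and pdx3-3 libraries did not overlap. AT1G72416, a DnaJ-domain protein, BXL2, a beta-xylosidase of the cell wall, and AT5G25280, a serine-rich protein-like gene, were higher than in pdx3-3 by 1.34, 1.28 and 1.15, and AT1G23052, annotated as other RNA, by 1.13, a call kept in 4 of 6 fits. Among the lowest, AT3G15310, an uncharacterized protein, stood at 5.13, 6.25 and 3.63 CPM in wild type, 2.57, 2.0 and 1.59 CPM in pdx3-3 and 0.733, 0.516 and 0.343 CPM in pdx3-4 (-1.91, SE 0.336, edgeR adjusted p = 0.00893 against pdx3-3). BBX29, AT2G15020 and GH9C2, a glycosyl hydrolase of the endoglucanase family, were lower than in pdx3-3, with log2 fold changes of -1.52, -1.29 and -1.08. XTH31 (-1.66) and PRE1 (-1.43) kept this call in 1 and 2 of 6 fits.

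The genes around PDX3 on chromosome 5 were compared as well, 5 on each side. NFU2 (20315390 to 20317401), a protein of iron-sulfur cluster assembly, was lower in pdx3-4 (-0.25, SE 0.0656, edgeR adjusted p = 0.0111). AFB5 (20333897 to 20336671), the auxin F-box receptor next to PDX3, was at 66.4, 68.0 and 68.1 CPM in wild type and 74.4, 76.6 and 80.8 CPM in pdx3-4 (0.20, SE 0.0612, edgeR adjusted p = 0.0267). That call was lost with upper-quartile factors and without wild-type library 1 or 2 or pdx3-4 library 2 or 3. AT5G49990 was higher (0.35, SE 0.118, edgeR adjusted p = 0.0382), a call lost in several alternatives too. The remaining 6 that could be tested were not called, and AT5G50010 had 0 counts. Among all nuclear genes tested, 21% were called higher and 18.4% lower. Against pdx3-3, AT5G49960, annotated as an ion channel protein, was at 10.3, 10.7 and 10.3 CPM in pdx3-4 and 6.77, 6.74 and 6.67 CPM in pdx3-3 (0.63, SE 0.115, edgeR adjusted p = 0.0106), and AFB5 was higher by 0.36, SE 0.0614, edgeR adjusted p = 0.00783, both kept in all 6 fits that left out a library.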

How the data were processed

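PolyA-selected RNA of whole rosettes was sequenced on an Illumina HiSeq2000 after preparation with a TruSeq stranded kit, per the labels' protocols. The authors deposited whole-number counts per locus, not normalized, 1 file per library. Per the submitters' processing notes, the tools included FastQC and TopHat2 (version 2), with build TAIR10. The sources used here do not say how reads were counted, with or without strand and with or without reads that fit several places, which leaves genes with close copies, overlapping genes and antisense pairs uncertain. Replicates were grouped by the genotype in the labels; chi-square per degree of freedom between libraries of a genotype was 5.34 to 25.5, so none was taken as a repeat of another.

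After filterByExpr and TMM scaling (factors of 0.949 to 1.03), edgeR 4.0.16 (R 4.3.3) gave quasi-likelihood tests from 1 model of all 9 libraries (15912737 to 21938941 counts each) with genotype as the only term, 6 residual degrees of freedom and a biological coefficient of variation of 0.109. P-values were adjusted by Benjamini-Hochberg over all 18783 loci tested, and the SE is the size of the log2 fold change over the square root of F. With 3 libraries against 3, the smallest p of an exact permutation test is 0.1. The scripts were checked on simulated counts with known changes.

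Of 33602 IDs, 32835 matched the TAIR10.1 reference, which gave names, coordinates and promoters, and 488 nuclear IDs did not; 279 were organellar. The files hold no coordinates, so whether the builds match in every position was not tested. The genotype comparison and the 35 gene lists (573 members, 534 tested) were chosen with earlier results of these data known, so list counts are descriptions beside the share of all genes. Named genes were PDX3 and the vitamin B6 list, the 10 higher and 10 lower called genes with the largest fold (at least 5 CPM in the higher group, no overlap), up to 4 members per list with the smallest adjusted p, the 6 highest and 6 lowest in pdx3-4 against both other groups, and 5 loci on each side of PDX3. Other genes were named after their values were seen. Alternatives were median-of-ratios, upper-quartile or library size scaling, no filter or a filter of 1 CPM in at least 3 libraries, limma-voom (limma 3.58.1), DESeq2 1.42.0, organellar loci left out, the 6 compared libraries alone, a replicate block and leaving out each library. No protein sequences were used.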

Additional observations from a re-analysis of the deposited data

How the results depend on the processing

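The count of genes lower in pdx3-4 than in wild type rose to 5317 with upper-quartile factors, and the count lower than in pdx3-3 rose to 915 when only those 6 libraries were fitted. The other alternatives that kept all libraries left the 4 counts within 1.5 times of the reported ones, and the log2 fold change of PDX3 between -1.07 and -0.90. Leaving out 1 library at a time gave 3270 to 3935 higher and 2567 to 3548 lower genes against wild type, 145 to 352 higher and 246 to 650 lower genes against pdx3-3, and -1.04 to -0.914 for PDX3. The cause of these shifts was not tested.

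The replicate numbers were not used as pairs in the main test. Deviations of same-numbered wild-type and pdx3-4 libraries correlated at 0.343, -0.0791 and 0.0292, and those of different numbers at -0.311 to 0.318. Not every library correlated best with its own number. Whether same-numbered libraries were handled together was not tested. With the replicate block the counts were 3739 and 3179 against wild type and 483 and 569 against pdx3-3, and PDX3 was at -0.96; the calls of PDX1.1, PLR1 and HSFB2A were not made in that fit.

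Besides PDX3, the naming rule gave 151 genes called against wild type, and genes named outside it were not counted here. Of the 151, 138 kept the call in every alternative that could be fitted. Those that lost it in at least 1 were PCNA1, SUC2, NAP, HSP101, APL, MCM5, FRU, PDX1.1, PLR1, RRTF1, AFB5, AT5G49990 and HSFB2A. Among genes named by the rule, a change of sign was seen only for those that were not called. With upper-quartile factors the log2 fold change was -0.029 for SOC1, -0.11 for SOS4 and -0.011 for AT5G49960, and with library size alone it was 0.035 for AT1G11930, 0.017 for PDX2 and 0.040 for AT5G50000. Leaving out 1 library gave -0.036 to 0.017 for AT1G11930, -0.031 to 0.74 for GL2, -0.26 to 0.15 for GL3, -0.0094 to 0.045 for SOS4, -0.097 to 0.0075 for PDX2, -0.12 to 0.0059 for emb1441 and -0.056 to 0.016 for AT5G50000. No statement is made on the 14608 nuclear loci with counts too low to test; low depth and lack of expression cannot be told apart there.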
